A study of Mus musculus with 12 samples.

Results

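AML246 cells, a mouse acute myeloid leukemia on the C57BL/6 background, were compared after 2 days of doxycycline (Dox) with cells from untreated leukemic recipients. The comparison was taken from the sample titles and uses 6 of the 12 bulk RNA sequencing libraries of the series, 3 for Dox day 2 and 3 for untreated cells. AML246 cells of both groups lack p53 and carry a hairpin against PU.1 (shPU.1) that is linked to green fluorescent protein (GFP), and Dox shuts the hairpin off. Both groups were sorted by GFP from bone marrow, the Dox day 2 cells as GFPhigh-mid and the untreated cells as GFPhigh, so gate and treatment time cannot be told apart. Every library holds the hairpin cells of this single leukemia, and what Dox does by itself cannot be told apart from the loss of the hairpin. The titles call the replicates technical and the series design speaks of triplicate mice, so the p-values speak of differences between samples whose spread may be technical. The 3 libraries each of Dox day 4 and Dox day 6 entered the fit for its estimate of spread, and their levels and later changes are given for the genes called at day 2.

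PU.1, encoded by Spi1, is an ETS-family transcription factor that binds purine-rich DNA around the letters GGAA. It is needed for the formation of macrophages and granulocytes, and it is known to act on genes of colony-stimulating factor receptors, Fc and paired immunoglobulin-like receptors, lysosomal proteins and the phagocyte oxidase. Reduced PU.1 activity holds myeloid progenitors in an immature, self-renewing state in mouse models of leukemia.

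Levels are given as CPM, read counts relative to library size, scaled by TMM factors, in the order of replicates 1, 2 and 3, and means carry the SD of 3 libraries. A gene was called when edgeR's quasi-likelihood test, fitted over 12057 genes and all 12 libraries, gave a Benjamini-Hochberg adjusted p under 0.05. "Rose" and "fell" are used of called genes only, and every log2 fold change is Dox day 2 over untreated with its SE. Library totals were 5805520, 4918920 and 6705112 counts at Dox day 2 and 6157782, 6593582 and 6337478 counts in untreated cells. At that depth 3 counts correspond to 0.447 to 0.61 CPM at Dox day 2 and 0.455 to 0.487 CPM in untreated cells, a floor that covers counting error only.

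Spi1 (Entrez 20375, chr2:91082374-91115759, GRCm38) was at 107, 98.8 and 123 CPM at Dox day 2 and at 54.2, 67.5 and 65.9 CPM in untreated cells. All Dox day 2 libraries lay above all untreated libraries. The log2 fold change was 0.81 ± 0.11 (quasi-likelihood adjusted p = 0.0039), and the call held with each of the 12 libraries left out in turn. A whole-gene count does not measure how much PU.1 protein the cells made, nor does it separate hairpin-cut from intact transcript. Trp53, the p53 gene (Entrez 22059), was at 43.9, 40.3 and 42.1 CPM at Dox day 2 and at 41.8, 45.0 and 41.5 CPM in untreated cells, and those ranges overlapped. Reads were not resolved by exon, so this value does not check the p53-/- label.

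Marker lists of cell types were read in the sorted cells, and they do not test leukemic identity. The filter on low counts drew on all 12 libraries. All 16 myeloid progenitor markers passed it, as did all 16 of mature neutrophils and all 24 of monocytes and macrophages. Mpo, the myeloperoxidase of primary granules, was at 12372 ± 562 CPM at Dox day 2 and 18038 ± 1186 CPM in untreated cells (not called, quasi-likelihood adjusted p = 0.104). Markers of B cells summed to 6.82 to 7.90 CPM at Dox day 2 and 8.07 to 18.2 CPM in untreated cells, and those of T and NK cells to 11.5 to 32.5 CPM and 8.65 to 12.5 CPM in the same order of groups, with Cd5 at 0 in all 6 libraries. Mcpt1, Mcpt2, Mcpt4 and Tpsb2 of mast cells, Gp6 and Rab27b of platelets and Col3a1 of stroma were also at 0 in all 6. Other members of those lists were not. The mast cell and basophil list, which counts Kit, summed to 408 to 497 CPM at Dox day 2 and 541 to 580 CPM in untreated cells. Megakaryocyte and platelet markers summed to 21.9 to 34.5 CPM and 26.4 to 28.2 CPM in the same order of groups. Those of stroma and endothelium summed to 295 to 322 CPM and 272 to 389 CPM. Eosinophil markers stood high in a single library, at 12.2, 71.9 and 196 CPM at Dox day 2 against 23.0, 53.6 and 49.9 CPM in untreated cells. Neutrophil markers summed to 1289, 1786 and 2507 CPM at Dox day 2 and 1092, 2247 and 1390 CPM in untreated cells. Monocyte and macrophage markers summed to 10466, 10751 and 7973 CPM at Dox day 2 and 7027, 8794 and 9313 CPM in untreated cells, and the sums overlapped. Member by member 17 of the 24 lay above untreated, where 49.2% of all tested genes did. In 11 of them the libraries did not overlap (12.2% of all tested genes), and the list's median log2 fold change was 0.73. Lyz2 and Csf2ra of that list rose by edgeR's quasi-likelihood test, and DESeq2 called 8 members higher. The part of these other cell types in the results below was not tested, and in bulk RNA fewer cells of a type and less RNA per cell cannot be told apart.

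Within 2 days on Dox, 126 genes rose (1.05% of those tested) and 49 fell (0.406%), together 175 (1.45%). A difference of at least 2-fold was seen in 44 of the genes that rose and 16 of those that fell. The median log2 fold change was 0.76 among the genes that rose, -0.84 among those that fell and -0.004 over all tested genes. Of the genes that rose 37 belong to the gene lists described below, and of those that fell 11. Among the rises were receptors of phagocytes such as Clec7a and Pirb, the adaptors Tyrobp and Gapt, Lpl and Pld4, and among the falls Plch2, Sox6, Gstm5 and Adgrg1. Of the 175 calls, 25 rises and 10 falls held with every library left out in turn. The counts depended on single libraries, with 27 higher and 11 lower when Dox day 2 replicate 2 was left out and 36 higher and 12 lower when Dox day 2 replicate 1 was. Leaving out untreated replicate 1 gave 30 higher and 22 lower, untreated replicate 3 gave 80 higher and 23 lower, and Dox day 6 replicate 2 gave 378 higher and 225 lower. The lower count also went to 29 without Dox day 2 replicate 3 and to 32 without Dox day 4 replicate 2.

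**Figure D1:**
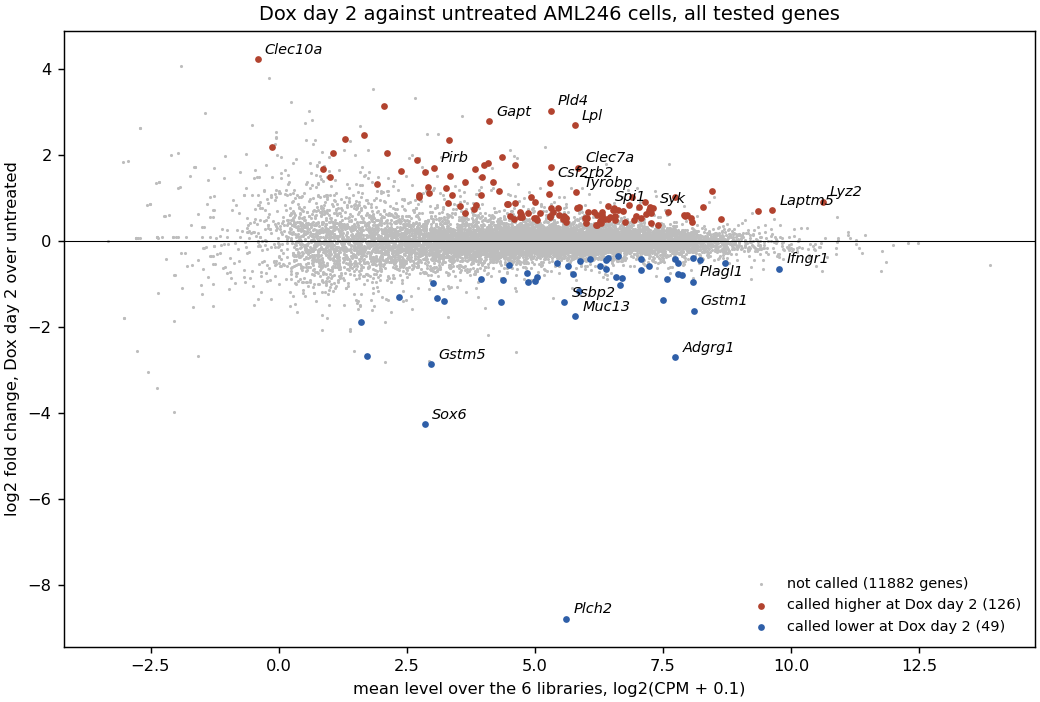
Each point is a tested gene, with its mean level over the 6 libraries on the x axis, as log2(CPM + 0.1), and its log2 fold change, Dox day 2 over untreated, on the y axis. Red marks the 126 genes called higher at Dox day 2, blue the 49 called lower and grey the rest, and Plch2 stands far below the other falls.

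Receptors of the immunoreceptor type signal through adaptors with tyrosine motifs, which recruit the kinase Syk after they are phosphorylated by Src-family kinases such as Lyn. Tyrobp (DAP12, Entrez 22177), such an adaptor, was at 70.3, 78.5 and 80.6 CPM at Dox day 2 and at 36.3, 36.5 and 31.5 CPM in untreated cells. Each Dox day 2 library was above every untreated library, and the log2 fold change was 1.14 ± 0.11 (quasi-likelihood adjusted p = 0.000585). Syk itself was at 189.7, 203 and 202 CPM at Dox day 2 and at 111, 117 and 122 CPM in untreated cells, a log2 fold change of 0.76 ± 0.10 (quasi-likelihood adjusted p = 0.0039). The replicates of each group lay close together and the groups were well apart.

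Gapt (Entrez 238875, chr13:110352614-110357220, GRCm38), a transmembrane adaptor that binds GRB2, had one of the steepest rises. Its levels were 24.1, 37.3 and 28.7 CPM at Dox day 2 and 4.40, 4.59 and 3.88 CPM in untreated cells, a ratio of means of 7.01. The log2 fold change was 2.80 ± 0.22 (quasi-likelihood adjusted p = 0.00013). Other intracellular signalling genes rose by less, with Pik3cd, the leukocyte PI3-kinase subunit p110 delta, at 289 ± 10.5 CPM at Dox day 2 and 189.5 ± 16.5 CPM in untreated cells. Pik3r6, a regulatory subunit of PI3-kinase gamma, was at 20.2, 28.2 and 16.6 CPM at Dox day 2 and at 5.39, 7.93 and 6.61 CPM in untreated cells. Fes, a tyrosine kinase of myeloid cells, reached 187 ± 5.68 CPM at Dox day 2 against 98.9 ± 15.9 CPM in untreated cells.

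Of 38 tested immunoreceptor kinases, adaptors and phosphatases, 8 rose and 0 fell (1.05% and 0.406% of all tested genes). They were Syk, Gapt, Pik3cd, Lyn, Sla, Sh2b3, Dok3 and Skap2. The list's median log2 fold change was 0.23, and 31 of the 38 lay above untreated, where 49.2% of all tested genes did. In 16 of them the libraries did not overlap with Dox day 2 higher (12.2% of all tested genes), and in 1 with Dox day 2 lower (12.5%). Lyn was at 195, 199 and 163 CPM at Dox day 2 and at 97.8, 118 and 121 CPM in untreated cells. Negative regulators were among the 8, since Sla (SLAP) acts in the turnover of immunoreceptors, Sh2b3 (LNK) restrains cytokine receptor signalling and Dok3 is an inhibitory adaptor. Sla reached 61.4 ± 14.8 CPM at Dox day 2 against 18.4 ± 10.3 CPM in untreated cells, Dok3 80.5 ± 4.38 CPM against 50.2 ± 3.74 CPM, and Sh2b3 56.7 ± 1.88 CPM against 37.6 ± 4.13 CPM.

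Tyrobp, Syk, Gapt, Pik3cd, Pik3r6 and Fes kept the call in every omission. Lyn, Sla, Sh2b3, Dok3 and Skap2 each lost it without Dox day 2 replicate 2 and without untreated replicate 1. Of these 5 genes, 4 also lost the call without Dox day 2 replicate 1, 4 without untreated replicate 3, Dok3 and Skap2 without Dox day 2 replicate 3, Lyn and Dok3 without untreated replicate 2 and Skap2 without Dox day 4 replicate 3. The highest adjusted p of each under any omission was 0.0748 to 0.153 by edgeR's quasi-likelihood test. Of 15 tested Fc receptors and their adaptors, 14 lay above untreated (49.2% of all tested genes did). In 6 the libraries did not overlap with Dox day 2 higher (12.2% of all tested genes). The median log2 fold change was 0.45 (0.21 without untreated replicate 1). Tyrobp was the only call by edgeR's quasi-likelihood test, with 7 at an unadjusted p under 0.05, 3 called by DESeq2 and 1 by limma voom. Fcgr1, the high-affinity IgG receptor, varied widely, at 14.7, 23.2 and 5.64 CPM at Dox day 2 and at 0.993, 5.29 and 1.15 CPM in untreated cells (quasi-likelihood adjusted p = 0.26). Trem2, a Tyrobp-coupled receptor of macrophages, averaged 9.56 ± 1.45 CPM at Dox day 2 and 2.36 ± 0.71 CPM in untreated cells without a call (quasi-likelihood adjusted p = 0.197).

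Paired immunoglobulin-like receptors come as activating and inhibitory members that set thresholds for myeloid activation. Pirb (Entrez 18733), an inhibitory member, was at 11.2, 14.6 and 11.1 CPM at Dox day 2 and at 2.84, 4.59 and 3.74 CPM in untreated cells, a log2 fold change of 1.71 ± 0.26 (quasi-likelihood adjusted p = 0.0075). Lair1, an inhibitory receptor for collagen, was at 45.7, 53.6 and 51.8 CPM at Dox day 2 and at 32.3, 29.6 and 32.6 CPM in untreated cells. Both genes had all Dox day 2 libraries above all untreated ones and kept the call in every omission. Lilra6 was at 4.10, 8.42 and 3.28 CPM at Dox day 2 and at 0.567, 1.11 and 1.01 CPM in untreated cells, from 98 and 19 summed counts. Pirb and Lilra6 belong to a cluster of close paralogs on chromosome 7, so their counts are uncertain where reads fit more than 1 member. In all, 3 of the 17 tested members of these families rose and none fell, where 1.05% and 0.406% of all tested genes did. Their median log2 fold change was 0.76, and in 5 the libraries did not overlap with Dox day 2 higher (12.2% of all tested genes).

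Clec7a (Dectin-1), the receptor for fungal beta-glucan, was at 85.4, 99.4 and 78.5 CPM at Dox day 2 and at 24.7, 28.1 and 27.4 CPM in untreated cells. The groups were far apart against the spread in either of them, with a log2 fold change of 1.71 ± 0.23 (quasi-likelihood adjusted p = 0.00407). The lectin Clec10a, a galactose-type receptor of macrophages and dendritic cells, was called from 24 counts at Dox day 2 and 1 count in untreated cells. Of 20 tested C-type lectins and pattern receptors these 2 rose and none fell (1.05% and 0.406% of all tested genes). The median log2 fold change of that list was 0.48. Toll-like receptors and their adaptors had 0 calls among 24 tested genes by edgeR's quasi-likelihood test (9 at an unadjusted p under 0.05, 5 called by DESeq2, 0 by limma voom), with a median of 0.25 (0.15 without untreated replicate 1). The members nearest to the threshold were Cd180, a Toll-like receptor relative, at 22.1 ± 5.04 CPM at Dox day 2 and 7.76 ± 2.94 CPM in untreated cells (quasi-likelihood adjusted p = 0.069), and Tlr1, at 2.47 ± 0.802 CPM and 0.705 ± 0.272 CPM in the same order. Lilra6 and Clec10a lost the call when Dox day 2 replicate 1 or 2 or any untreated library was omitted, and in addition Lilra6 without Dox day 4 replicates 2 or 3 or Dox day 6 replicate 3, and Clec10a without Dox day 2 replicate 3 or any Dox day 4 replicate (highest adjusted p of 0.165 and 0.155 by edgeR's quasi-likelihood test).

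**Figure D2:**
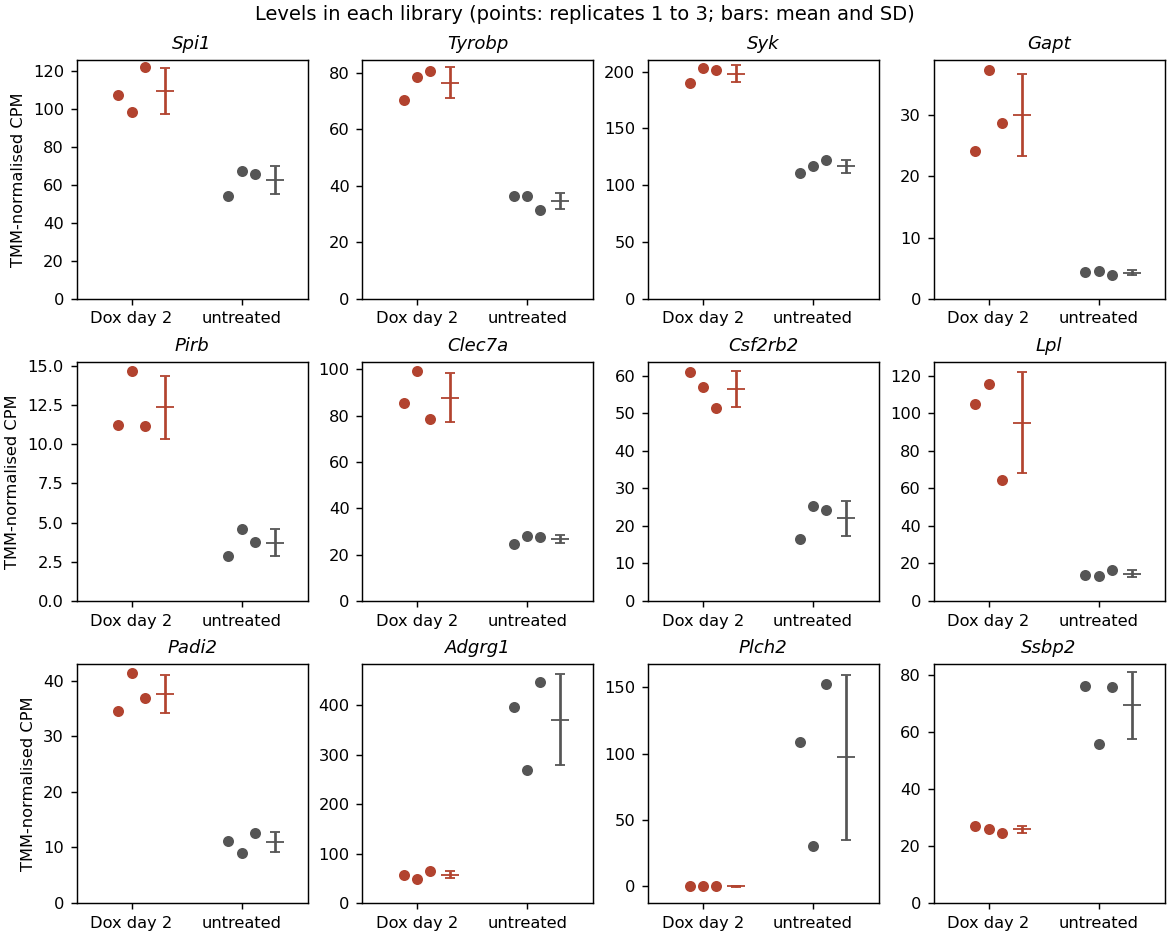
Points are the TMM-normalised CPM of replicates 1 to 3 for 12 genes, with Dox day 2 in red on the left and untreated in grey on the right, and the bar beside each group is the mean with its SD. In 9 panels, from Spi1 to Padi2, Dox day 2 lies above untreated, and in the last 3, Adgrg1, Plch2 and Ssbp2, it lies below.

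Promoter sequence was set beside the calls because PU.1 binds a known letter sequence. The letters GAGGAAGT, a core of the PU.1 motif, and shorter parts of it were searched on both strands in RefSeq promoter windows of GRCm38.p6 that run from 250 bases before to 50 after each annotated start. Of the 126 genes that rose, 103 matched the table, with 138 windows, and of the 49 that fell 40 matched, with 58 windows. The letters were found in 12.3% of the windows of genes that rose and in 3.45% of the windows of genes that fell. They were in 3.4% of the 11956 windows of all tested genes and in 3.2% of all 32851 windows in the table. Counted by matched gene, the shares were 15.5% of those that rose, 5% of those that fell and 4.06% of all tested. The hits are not all separate sites, since overlapping windows of Selenop, which rose, hold the same letters. The paralogs Pirb and Lilra6 have nearly the same sequence around theirs. The shorter GAGGAA, which each GAGGAAGT contains, was in 42% of the windows of genes that rose, 15.5% of those of genes that fell and 26.9% of those of all tested genes. GGAA alone, contained in both, was in 97.1%, 89.7% and 95.8% of the windows in the same order, so it hardly separates the sets. These shares describe letters in a window and no binding was measured.

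The genes that rose and held GAGGAAGT in a window numbered 16, among them Gapt, Pirb, Nostrin, Lilra6, Csf2rb2, Pld4, Rel, Ptgs1 and Nceh1, and the genes that fell numbered 2, Msl2 and Gla. In Csf2rb2, Pld4 and Fgd2 the letters do not lie wholly before the start. The stretches below show the letters in the upstream sequence of the 4 genes that hold them there and kept the call in every omission, and of Ptgs1, where they stand nearest to an annotated start. Each reads 5′ to 3′ on the strand of its gene, and the capitals mark GAGGAAGT or its reverse complement. Gapt is from chr13:110357237-110357324 (minus strand), Nostrin from chr2:69135703-69135790 (plus), Pirb from chr7:3720455-3720542 (minus), Ptgs1 from chr2:36230362-36230425 (plus) and Msl2 from chr9:101074532-101074619 (plus). The letters end 104 bases before the annotated start of the window in Gapt, 49 in Nostrin, 112 in Pirb, 16 in Ptgs1 and 182 in Msl2. In Ptgs1 and Msl2 that start is an internal one, and the stretch shown lies within the gene (chr2:36216742-36258593 and chr9:101074054-101104800). In Gapt that start also lies inside the gene (chr13:110352614-110357220), but the stretch shown lies before the gene.
Gapt: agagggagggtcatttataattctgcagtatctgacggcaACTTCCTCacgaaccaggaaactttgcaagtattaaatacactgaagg
Nostrin: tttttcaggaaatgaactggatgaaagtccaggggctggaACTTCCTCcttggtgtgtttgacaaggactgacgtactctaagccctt
Pirb: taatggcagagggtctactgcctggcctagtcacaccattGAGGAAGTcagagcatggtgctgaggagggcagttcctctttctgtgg
Ptgs1: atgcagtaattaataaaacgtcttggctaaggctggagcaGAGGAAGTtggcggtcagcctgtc
Msl2: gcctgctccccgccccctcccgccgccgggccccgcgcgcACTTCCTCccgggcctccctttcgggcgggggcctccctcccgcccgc

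Nostrin, an adaptor known for the trafficking of nitric oxide synthase in endothelium, was at 2.89, 4.21 and 4.85 CPM at Dox day 2 and at 0.709, 0.974 and 0.575 CPM in untreated cells, so it rose from a low level. Its log2 fold change was 2.37 ± 0.34 (quasi-likelihood adjusted p = 0.00507). Msl2, a ubiquitin ligase of the MSL chromatin complex, was at 163, 173 and 163 CPM at Dox day 2 and at 274, 269.9 and 295 CPM in untreated cells. It thus fell while holding the same letters in its promoter window as Gapt.

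**Figure D3:**
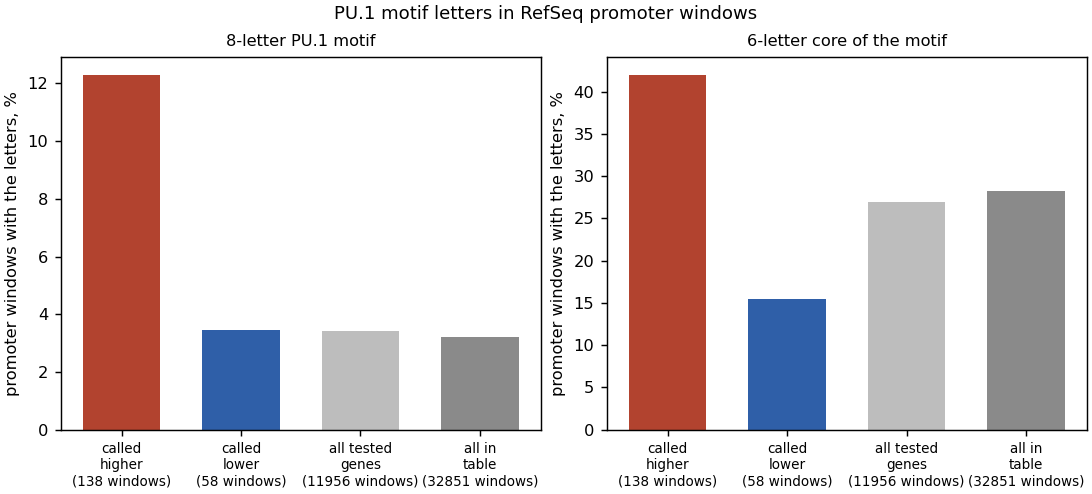
Bars give the percentage of RefSeq promoter windows that hold the 8 letters of the PU.1 motif (left) or its 6-letter core (right), for genes called higher at Dox day 2, genes called lower, all tested genes and all windows in the table. The bar of genes called higher is the tallest in both panels, at 12.3% and 42%, and the bar of genes called lower stands at 3.45% and 15.5%.

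Colony-stimulating factors act through receptors that pair a ligand-specific chain with a shared beta chain. Csf2ra, the GM-CSF-specific chain, was at 70.8, 68.3 and 81.0 CPM at Dox day 2 and at 38.1, 46.4 and 42.5 CPM in untreated cells. Csf2rb2, the mouse beta chain for IL-3, was at 61.1, 57.1 and 51.4 CPM at Dox day 2 and at 16.6, 25.2 and 24.3 CPM in untreated cells, a log2 fold change of 1.36 ± 0.14 (quasi-likelihood adjusted p = 0.000688). Both kept the call in every omission, with no overlap between the groups. Csf2rb, the common beta chain and a close paralog of Csf2rb2, was at 395, 401 and 377 CPM at Dox day 2 and at 321, 323 and 383 CPM in untreated cells and was not called (quasi-likelihood adjusted p = 0.33), and reads shared by the pair could have been assigned to either.

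Csf1r, which binds M-CSF and IL-34 on cells of the monocyte lineage, was at 332, 359.5 and 227 CPM at Dox day 2 and at 58.4, 119 and 86.5 CPM in untreated cells. Its groups did not overlap, but the libraries within them varied widely and the adjusted p of 0.0503 by edgeR's quasi-likelihood test was just past the threshold. Csf3r, the G-CSF receptor, was nearly level at 279 ± 16.4 CPM at Dox day 2 and 274 ± 23.3 CPM in untreated cells. Il6ra, the IL-6 receptor chain, rose to 165 ± 29.5 CPM at Dox day 2 against 95.2 ± 11.1 CPM in untreated cells. Ifngr1, a chain of the interferon-gamma receptor, fell, with 684, 621 and 737 CPM at Dox day 2 and 1114, 1041 and 1037 CPM in untreated cells. Of 28 tested receptors of this list 3 rose and 1 fell (1.05% and 0.406% of all tested genes). Their median log2 fold change was 0.21 (0.32 without untreated replicate 3). Il6ra lost the call without any of Dox day 2 replicates 1 and 2, the untreated and the Dox day 4 replicates and Dox day 6 replicate 3 (up to an adjusted p of 0.201), and Ifngr1 without Dox day 2 replicates 1 or 2 or untreated replicate 1 (up to 0.0844 by edgeR's quasi-likelihood test).

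Lipid genes gave a further steep rise. Lpl (Entrez 16956, chr8:68880555-68906932, GRCm38), lipoprotein lipase, was at 105, 116 and 64.5 CPM at Dox day 2 and at 13.6, 13.4 and 16.7 CPM in untreated cells. The lowest Dox day 2 library was still well above the highest untreated library, and the log2 fold change was 2.70 ± 0.23 (quasi-likelihood adjusted p = 0.00036). Ptgs1, cyclooxygenase 1, rose to 192 ± 27.2 CPM at Dox day 2 against 111 ± 20.4 CPM in untreated cells. Cyp4f18, which in mouse neutrophils inactivates leukotriene B4, and Nceh1, a cholesteryl ester hydrolase of macrophages, rose to 10.1 ± 2.29 and 15.1 ± 0.333 CPM at Dox day 2 against 2.68 ± 0.448 and 9.58 ± 0.797 CPM in untreated cells. Cyp4f18 has close paralogs that may share its reads. Acox3, a peroxisomal oxidase of branched fatty acids that stood outside the list, was at 67.3, 73.4 and 72.5 CPM at Dox day 2 and at 40.4, 37.7 and 47.3 CPM in untreated cells. In the list of 25 tested lipid genes 4 rose and 1, Plch2, fell (1.05% and 0.406% of all tested genes). The median log2 fold change was 0.25.

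Lysosomal genes held both directions. Pld4, an endolysosomal nuclease of myeloid cells, was at 71.1, 93.4 and 47.3 CPM at Dox day 2 and at 5.53, 13.9 and 6.18 CPM in untreated cells, a log2 fold change of 3.03 ± 0.49 (quasi-likelihood adjusted p = 0.017). Laptm5, a lysosomal membrane protein of blood cells that acts in the turnover of antigen receptors, was at 949.7, 1046 and 973 CPM at Dox day 2 and at 591, 564 and 649.9 CPM in untreated cells. Both genes had no overlap between groups, with a narrower spread in Laptm5. Asah1, acid ceramidase, rose to 96.8 ± 8.97 CPM at Dox day 2 against 60.8 ± 7.92 CPM in untreated cells. Gla, alpha-galactosidase, fell to 40.2 ± 1.38 CPM at Dox day 2 against 59.6 ± 3.61 CPM in untreated cells. Of the 42 lysosomal genes tested, 35 lay above untreated (49.2% of all tested genes did), with a median of 0.25. In 18 the libraries did not overlap with Dox day 2 higher (12.2% of all tested genes), and in 1 with Dox day 2 lower (12.5%). By edgeR's quasi-likelihood test 3 rose and 1 fell (1.05% and 0.406% of all tested genes). At an unadjusted p under 0.05 there were 15, and DESeq2 called 8 higher and 1 lower.

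Lpl, Laptm5 and Acox3 kept the call in every omission. Pld4, Asah1, Ptgs1, Cyp4f18, Nceh1 and Gla each lost it without Dox day 2 replicate 1 and without Dox day 2 replicate 2. Without untreated replicate 1 all of these but Gla lost it, without untreated replicate 3 all but Ptgs1, and without Dox day 2 replicate 3 all but Pld4 and Ptgs1. Cyp4f18 and Nceh1 also lost it without untreated replicate 2, Asah1 without Dox day 4 replicate 2, and Cyp4f18 without Dox day 4 replicate 3 or Dox day 6 replicate 1. The highest adjusted p of each was 0.0741 to 0.188 by edgeR's quasi-likelihood test.

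The phagocyte oxidase makes superoxide from NADPH. All 9 of its tested genes lay above untreated, where 49.2% of all tested genes did. In 7 the groups did not overlap (12.2% of all tested genes), and the median log2 fold change was 0.26. The only call was Ncf1 (p47phox), at 391, 381 and 416 CPM at Dox day 2 and 195, 231 and 255 CPM in untreated cells. Cybb, the catalytic subunit, averaged 221 ± 47.0 CPM at Dox day 2 and 106 ± 40.4 CPM in untreated cells (quasi-likelihood adjusted p = 0.114). Among 27 tested genes of secondary and tertiary granules 3 rose and none fell (1.05% and 0.406% of all tested genes). Lyz2, lysozyme M, rose to 2057 ± 389.6 CPM at Dox day 2 against 1087 ± 193 CPM in untreated cells, and Cd177, a neutrophil surface protein, to 286 ± 16.3 CPM against 140.3 ± 24.7 CPM. Padi2, an enzyme that converts arginine in proteins to citrulline, was at 34.6, 41.4 and 37.0 CPM at Dox day 2 and at 11.2, 9.05 and 12.6 CPM in untreated cells and kept the call in every omission.

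The granule list's median log2 fold change of 0.18 turned to -0.36 without Dox day 2 replicate 3, the library in which eosinophil markers and neutrophil markers stood highest. It was 0.06 to 0.56 without any 1 of the other 5 libraries compared. Of 15 tested primary granule genes 1 fell and none rose (0.406% and 1.05% of all tested genes). The member that fell, Gstm1, is a glutathione transferase. In 6 of the 15 the libraries did not overlap with Dox day 2 lower (12.5% of all tested genes), and in 2 with Dox day 2 higher (12.2%). At an unadjusted p under 0.05 there were 7, and DESeq2 called 4 lower and limma voom 1. The median log2 fold change was -0.04, and the sums were 27169 to 28330 CPM at Dox day 2 and 34706 to 38495 CPM in untreated cells. Ncf1, Lyz2 and Cd177 lost the call when replicate 1 or 2 of either group was omitted. Ncf1 also lost it without Dox day 2 replicate 3, and Lyz2 without untreated replicate 3, Dox day 4 replicates 2 or 3 or Dox day 6 replicate 3. The highest adjusted p of each was 0.145 for Ncf1, 0.213 for Lyz2 and 0.106 for Cd177 by edgeR's quasi-likelihood test.

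Among 30 tested integrins and adhesion genes 3 rose and none fell (1.05% and 0.406% of all tested genes). The median log2 fold change was 0.2 (0.13 without untreated replicate 1, 0.31 without untreated replicate 3). Pcdh18, a protocadherin, was at 15.6, 22.1 and 11.8 CPM at Dox day 2 and at 3.55, 3.2 and 2.87 CPM in untreated cells and kept the call in every omission. Itgal, the alpha chain of LFA-1, rose to 122 ± 18.6 CPM at Dox day 2 against 73.6 ± 14.3 CPM in untreated cells. Itgam (CD11b), a mature myeloid integrin, was at 32.5, 46.1 and 82.6 CPM at Dox day 2 and at 22.7, 44.3 and 19.3 CPM in untreated cells, and those groups overlapped. Cfp, properdin of the complement system, was at 34.8, 35.1 and 27.5 CPM at Dox day 2 and at 5.25, 13.5 and 6.32 CPM in untreated cells, the only call among 16 complement genes. H2-DMa, which helps load peptides onto class II molecules, was at 26.9, 32.2 and 25.0 CPM at Dox day 2 and at 15.2, 17.1 and 13.9 CPM in untreated cells, the only call among 12 class II genes, and it held in every omission.

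Chemokine and chemoattractant receptors gave 0 calls among 24 tested genes by edgeR's quasi-likelihood test (2 at an unadjusted p under 0.05, 1 called by DESeq2, 0 by limma voom), with a median of 0.36 that went to 0.18 without Dox day 2 replicate 3 and to 0.21 without untreated replicate 1. P2rx7, an ATP-gated channel, averaged 25.6 ± 5.43 CPM at Dox day 2 and 10.7 ± 2.09 CPM in untreated cells, and Gpr35 averaged 6.00 ± 2.25 CPM and 2.60 ± 1.27 CPM in the same order. P2ry1, an ADP receptor outside that list, was at 13.8, 15.7 and 10.5 CPM at Dox day 2 and at 4.68, 6.40 and 5.75 CPM in untreated cells, and Relt, a receptor of the TNF receptor family, averaged 26.2 ± 6.45 CPM and 9.95 ± 0.934 CPM. Both rose and kept the call in every omission. Itgal and Cfp lost theirs without Dox day 2 replicates 1 or 2 and without untreated replicates 1 or 3. Itgal also lost it without Dox day 2 replicate 3, any Dox day 4 replicate or Dox day 6 replicate 3 (highest adjusted p of 0.117 for Itgal and 0.105 for Cfp by edgeR's quasi-likelihood test).

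Genes of stem and progenitor cells were among the deepest falls. Adgrg1 (GPR56, Entrez 14766, chr8:94974756-95014208, GRCm38), an adhesion G protein-coupled receptor of hematopoietic stem cells, was at 57.3, 49.4 and 64.1 CPM at Dox day 2 and at 396, 269 and 447 CPM in untreated cells. Its log2 fold change was -2.70 ± 0.17 (quasi-likelihood adjusted p = 2.35e-05). The highest Dox day 2 library was far below the lowest untreated library. Muc13, a membrane mucin, fell to 25.2 ± 10.9 CPM at Dox day 2 against 85.4 ± 16.5 CPM in untreated cells, and Heg1, a membrane receptor of endothelial and progenitor cells, to 10.9 ± 1.69 CPM against 29.3 ± 9.34 CPM. Kit, the stem cell factor receptor, was at 358, 318 and 381 CPM at Dox day 2 and at 458, 458 and 471 CPM in untreated cells without a call (quasi-likelihood adjusted p = 0.588). Of 14 tested progenitor surface genes 3 fell, 1 rose and 9 lay below untreated, where 0.406%, 1.05% and 50.5% of all tested genes did. The median log2 fold change was -0.37 (-0.24 without untreated replicate 2).

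Progenitor transcription factors had 2 falls and no rise among 16 tested genes (0.406% and 1.05% of all tested genes). Of the 16, 13 lay below untreated (50.5% of all tested genes did). Their median was -0.43 (-0.25 without Dox day 2 replicate 1, -0.28 without untreated replicate 1). Hoxa7, Hoxa9, Hoxa10, Meis1 and Mecom, factors of many myeloid leukemias, were at 0 counts in all 6 libraries. Sox6, an SRY-box factor, was at 0.152, 0.366 and 1.44 CPM at Dox day 2 and at 12.5, 8.21 and 20.3 CPM in untreated cells, from 14 and 288 summed counts. Etv6, an ETS-family repressor, fell to 234 ± 5.42 CPM at Dox day 2 against 308 ± 20.8 CPM in untreated cells. Myb, a factor of progenitor self-renewal, was at 494, 378 and 539.8 CPM at Dox day 2 and at 748, 727 and 679 CPM in untreated cells, without overlap but not called (quasi-likelihood adjusted p = 0.15). Ssbp2, a single-stranded DNA binding partner of LIM-domain complexes, was at 27.0, 26 and 24.6 CPM at Dox day 2 and at 76.3, 56.0 and 76.0 CPM in untreated cells, a log2 fold change of -1.42 ± 0.17 (quasi-likelihood adjusted p = 0.00207).

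Plch2 (Entrez 269615), phospholipase C eta-2, had the largest fall, at 0, 0 and 0.524 CPM at Dox day 2 and at 109, 30.3 and 153 CPM in untreated cells. These levels rest on 4 and 2052 summed counts, and untreated replicate 2 held much less than its partners. The call held in every omission (highest quasi-likelihood adjusted p = 0.0182). Gstm1 and Gstm5, glutathione transferases of the mu class, also fell. Gstm1 was at 133, 122 and 149.9 CPM at Dox day 2 and at 373, 256 and 610.0 CPM in untreated cells, and Gstm5 at 0.911, 0.915 and 3.54 CPM and 20.6, 12.9 and 7.47 CPM in the same order. The mu-class genes share sequence, so reads may move between them. Of 28 tested glutathione transferases and redox enzymes Gstm1 and Gstm5 fell and none rose (0.406% and 1.05% of all tested genes). DESeq2 called 2 lower and 1 higher, and 10 of the 28 lay above untreated. The median was -0.1 (-0.02 without untreated replicate 3).

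Adgrg1, Plch2 and Ssbp2 kept the call in every omission. Sox6 lost it only without Dox day 2 replicate 2 (adjusted p = 0.0568), and Gstm1 and Heg1 without Dox day 2 replicates 1 or 2 (up to 0.0695 and 0.088 by edgeR's quasi-likelihood test). Gstm5 lost it without those or untreated replicates 1 or 2 (up to 0.144), and Muc13 without those 4, untreated replicate 3, Dox day 4 replicate 2 or Dox day 6 replicate 1 (up to 0.172 by edgeR's quasi-likelihood test). Etv6 kept it only without Dox day 6 replicates 2 or 3 (up to 0.202 by edgeR's quasi-likelihood test).

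Further falls held in every omission and came from unrelated functions. Plagl1, an imprinted zinc-finger factor, was at 182, 192 and 183 CPM at Dox day 2 and at 338, 375 and 354 CPM in untreated cells. Dio2, the deiodinase that activates thyroid hormone, was at 60.9, 61.9 and 79.8 CPM at Dox day 2 and at 144, 125 and 139 CPM in untreated cells. Chic2, a palmitoylated vesicle protein, was at 32.5, 40.6 and 35.3 CPM at Dox day 2 and at 87.6, 65 and 89.1 CPM in untreated cells. In each of these genes every untreated library lay above every Dox day 2 library. Atg12, a ubiquitin-like protein of autophagy, averaged 136 ± 6.94 CPM at Dox day 2 and 247 ± 32.8 CPM in untreated cells. Isca1, of iron-sulfur cluster assembly, averaged 22 ± 1.41 and 42.2 ± 4.86 CPM, and Boc, a hedgehog co-receptor, 23.5 ± 1.16 and 42.0 ± 4.64 CPM, in the same order. The log2 fold changes of Plagl1, Dio2, Chic2, Atg12, Isca1, Boc and Msl2 were -0.75 to -1.16.

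Among 24 tested PU.1 partners and myeloid transcription factors Spi1 was the only call by edgeR's quasi-likelihood test, and DESeq2 called 3 higher. The list's median log2 fold change of 0.05 went up to 0.31 without untreated replicate 3. It went to 0.01 without Dox day 2 replicate 2 and to about 0 without untreated replicate 1. Klf4, a factor of monocyte differentiation, was at 44.0, 42.3 and 29.1 CPM at Dox day 2 and at 6.66, 5.85 and 16.8 CPM in untreated cells, and did not pass (quasi-likelihood adjusted p = 0.0708). Irf8, a factor of the monocyte lineage, averaged 639.6 ± 169.6 CPM at Dox day 2 and 711 ± 228 CPM in untreated cells. Cebpe, a factor of granulocyte maturation, was level at 68.0 ± 27.2 and 67.1 ± 4.65 CPM in the same order. Of 28 tested immediate early and NF-kappaB genes 3 rose and none fell (1.05% and 0.406% of all tested genes). Rel averaged 12.7 ± 1.43 CPM at Dox day 2 and 6.87 ± 1.53 CPM in untreated cells. The inhibitor Nfkbie averaged 14.7 ± 0.47 and 8.35 ± 0.377 CPM, and the antiproliferative gene Btg2 18.3 ± 2.39 and 10.3 ± 1.68 CPM. The list's median was -0.14, but 0.10 without untreated replicate 3 and -0.26 without untreated replicate 2, and Btg2 was also the only call among 20 p53 pathway genes. Nfkbie lost the call only without Dox day 2 replicate 2 (adjusted p = 0.0568), Rel without Dox day 2 replicates 1 or 2 or untreated replicates 1 or 3 (up to 0.107), and Btg2 without any of the 6 libraries compared (up to 0.0982 by edgeR's quasi-likelihood test). Feedback inhibitors of MAP kinases had 0 calls among 15 by edgeR's quasi-likelihood test, DESeq2 or limma voom (3 at an unadjusted p under 0.05) and a median of -0.04 (-0.14 without Dox day 2 replicate 3), with Spred2 at 17.7 ± 1.40 CPM at Dox day 2 and 24.8 ± 3.78 CPM in untreated cells and Etv5 at 6.15 ± 1.66 and 9.88 ± 2.72 CPM.

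Among proliferation genes the mitosis list lay on 1 side of untreated. All 33 tested mitosis genes lay above untreated (49.2% of all tested genes did), 16 without overlap (12.2% of all tested genes). Their mean log2(CPM + 1) was 6.61, 6.67 and 6.4 at Dox day 2 and 6.22, 6.4 and 6.1 in untreated cells. Dox day 2 replicate 3 was thus level with untreated replicate 2. The list had a median log2 fold change of 0.31 and 0 calls by edgeR's quasi-likelihood test, DESeq2 or limma voom. At an unadjusted p under 0.05 there were 17, and a fit of the 6 libraries alone called 2 and the fit without Dox day 6 replicate 2 called 7. The ubiquitin-conjugating enzyme Ube2c averaged 77.5 ± 9.29 CPM at Dox day 2 and 59.1 ± 0.409 CPM in untreated cells, and the mitotic cyclin Ccnb2 123 ± 10.2 and 98.6 ± 9.13 CPM. DNA replication genes had a median of 0.04 (0.10 without untreated replicate 2, about 0 without untreated replicate 3) and 0 calls among 32 by edgeR, DESeq2 or limma voom (3 at an unadjusted p under 0.05), with Tyms at 65.3 ± 2.67 and 53.4 ± 2.53 CPM and Mcm3 at 313 ± 16.5 and 266 ± 33.8 CPM in that order. G1 regulators had a median of 0.17 and 0 calls among 20 by edgeR (5 at an unadjusted p under 0.05, 1 called by DESeq2, 0 by limma voom). Cyclin E1 (Ccne1) came nearest at 20.2, 24.0 and 20.3 CPM at Dox day 2 and 15, 13.4 and 13.9 CPM in untreated cells (quasi-likelihood adjusted p = 0.0722), ahead of the pocket protein Rbl1 at 126 ± 12.5 and 98.8 ± 6.64 CPM.

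Of 50 ribosomal protein genes 45 lay below untreated (50.5% of all tested genes did), with a median of -0.18. In 25 the libraries did not overlap with Dox day 2 lower (12.5% of all tested genes), and in 0 with Dox day 2 higher. Only Rps14 fell (0.406% of all tested genes did), at 348, 359.5 and 337 CPM at Dox day 2 and 467, 516 and 497 CPM in untreated cells. Rps14 lost the call without any Dox day 2 replicate and without untreated replicates 2 or 3 (up to an adjusted p of 0.0874 by edgeR's quasi-likelihood test). Ribosome biogenesis genes had 34 of 35 below untreated (50.5% of all tested genes), 17 of them without overlap (12.5% of all tested genes). Their median was -0.23 (-0.12 without untreated replicate 2), with 0 calls by edgeR, DESeq2 or limma voom (5 at an unadjusted p under 0.05). Wdr12 was at 54.0 ± 3.19 CPM at Dox day 2 and 74.0 ± 13.7 CPM in untreated cells, and Gnl3 at 90.3 ± 8.55 and 122 ± 4.85 CPM. Heat shock and folding genes had a median of -0.2 and 0 calls among 26 by edgeR (6 at an unadjusted p under 0.05, 1 called lower by DESeq2, 0 by limma voom). In that list Serpinh1, the collagen chaperone, was at 38.1, 32.9 and 31.1 CPM at Dox day 2 and at 35.5, 58.6 and 123 CPM in untreated cells, so a single untreated library set its mean, while Calr, calreticulin, was at 1142 ± 17.2 and 1717 ± 128 CPM.

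Interferon response genes had 0 calls among 36 by edgeR's quasi-likelihood test, DESeq2 or limma voom (1 at an unadjusted p under 0.05) and a median of -0.11. The median turned to 0.37 without untreated replicate 2 and to 0.06 without Dox day 2 replicate 3, and was -0.35 to -0.18 without any 1 of the other 4 libraries compared. Their highest library was untreated replicate 2, in which Rsad2, the antiviral protein viperin, stood at 102 CPM, against 20.4 and 51.9 CPM in the other untreated libraries and 22.8, 34.0 and 14.2 CPM at Dox day 2. Isg20 averaged 15.2 ± 1.75 CPM at Dox day 2 and 19.3 ± 4.10 CPM in untreated cells. Cell death genes of the BCL2 family and its relatives had 0 calls among 22 by edgeR (5 at an unadjusted p under 0.05, 1 called by DESeq2, 0 by limma voom) and a median of 0.13 (0.06 without untreated replicate 1), with the caspase inhibitors Xiap at 143 ± 10.4 and 113 ± 5.78 CPM and Birc3 at 38.0 ± 2.39 and 29.9 ± 2.00 CPM in the same order of groups.

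**Figure D4:**
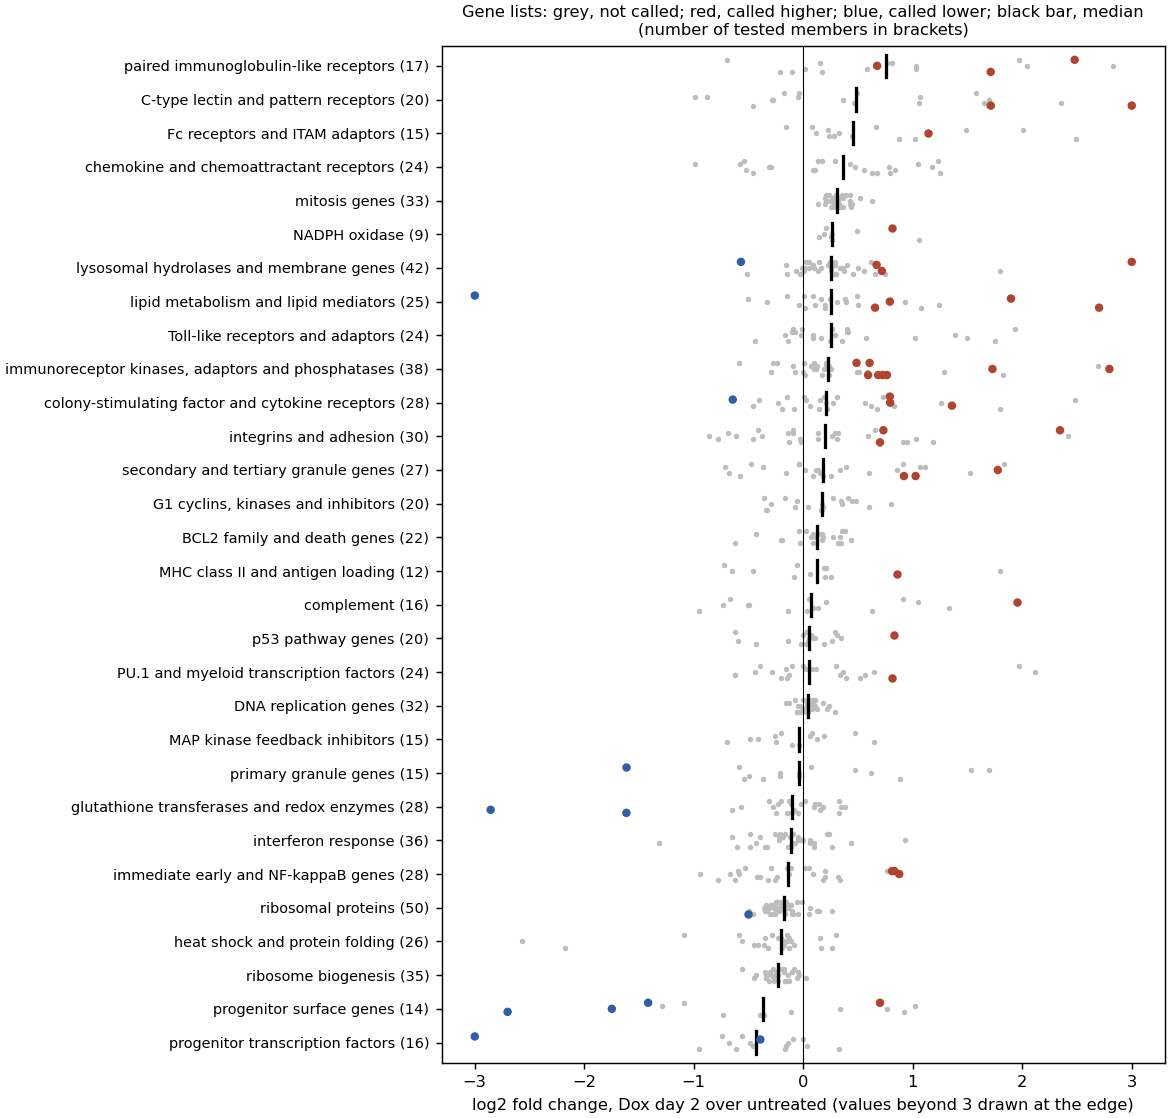
Each row is a gene list with its number of tested members, each point a member's log2 fold change, Dox day 2 over untreated, and the black bar the list's median. Red points are members called higher and blue points members called lower. Medians run from 0.76 for paired immunoglobulin-like receptors to -0.43 for progenitor transcription factors, and all points of the mitosis list lie right of 0 although none is called.

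Outside these lists the largest rises, taken among called genes that reached 5 CPM, were found in Gprc5c, AI839979, Zfp385a, Coro2a, Pik3r6, Tiam2, Itpripl1, Filip1l and Hacd4. Coro2a, an actin-binding coronin, was at 23.5, 22.3 and 28.4 CPM at Dox day 2 and at 4.96, 6.54 and 10.3 CPM in untreated cells. Gprc5c, an orphan G protein-coupled receptor, was at 6.38, 11.5 and 4.06 CPM at Dox day 2 and at 0.567, 0.696 and 1.15 CPM in untreated cells. Coro2a kept the call in every omission, as did Pik3r6. The others had log2 fold changes of 1.5 to 3.13, and each lost the call without Dox day 2 replicates 1 or 2 or untreated replicate 1. Of those 7, 6 also lost it without untreated replicate 3, 4 without untreated replicate 2, Zfp385a and Filip1l without any Dox day 4 replicate or Dox day 6 replicate 1, and Filip1l without Dox day 2 replicate 3 (highest adjusted p of 0.0695 to 0.201 by edgeR's quasi-likelihood test). Pdlim2, Man1c1 and Stx12, which act in the nucleus, Golgi and endosomes, rose with ratios of means of 2.42, 1.88 and 1.46 and kept the call in every omission.

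The largest remaining falls were those of Chrm2, a muscarinic acetylcholine receptor, Lamb1, a laminin chain, Slc29a3, a lysosomal nucleoside transporter, Rimbp3 and Lims2. Slc29a3 was at 116, 104 and 83.2 CPM at Dox day 2 and at 248, 221 and 308 CPM in untreated cells, with no overlap. The other 4 averaged 0.829 to 5.13 CPM at Dox day 2 and 5.54 to 13.5 CPM in untreated cells. All of them lost the call without Dox day 2 replicate 2, Slc29a3 otherwise only without untreated replicate 1. The other 4 also lost it without Dox day 2 replicate 1 or untreated replicate 3 and some of them without further libraries of every group except Dox day 6 replicate 2 (highest adjusted p of 0.0748 to 0.195 by edgeR's quasi-likelihood test).

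Of the marker lists, 8 had no called member, with 0 of 44 tested genes called by edgeR's quasi-likelihood test, 5 at an unadjusted p under 0.05, 1 called by DESeq2 and 0 by limma voom. The members named here had the lowest p-values of their own list, most of them above 0.05 unadjusted. They were Car2 and Klf1 of erythroid cells, F2rl2 of megakaryocytes, Gata2 and Mcpt8 of mast cells and basophils, Prg3 and Ear6 of eosinophils, Jchain and Igll1 of B cells, Thy1 and Gzmb of T and NK cells, Clec9a and Itgax of dendritic cells, and Eln and Cxcl12 of stroma. Prg3 was at 0.152, 2.75 and 10.7 CPM at Dox day 2 and at 0.567, 2.09 and 1.58 CPM in untreated cells, so a single library held most of it. Thy1 was at 6.99, 10.1 and 25.3 CPM at Dox day 2 and at 3.4, 2.23 and 5.46 CPM in untreated cells, again highest in Dox day 2 replicate 3 (quasi-likelihood adjusted p = 0.0708). Cxcl12, a chemokine made by marrow stroma, overlapped at 76.8, 62.1 and 34.5 CPM at Dox day 2 and 45.7, 31.5 and 51.7 CPM in untreated cells.

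Levels at the later days, in libraries that share the fit with these groups, show where day 2 stood in the course. Spi1 averaged 62.5, 109.6, 260.1 and 458 CPM in untreated cells and at Dox days 2, 4 and 6. Tyrobp averaged 34.7, 76.5, 350.0 and 682 CPM in that order, and Lyz2 1087, 2057, 12404 and 24305 CPM. Levels of Lpl were 14.5, 95.0, 597 and 155 CPM and those of Pcdh18 3.21, 16.5, 40.1 and 5.06 CPM, so both were highest at day 4. Adgrg1 stood at 371, 56.9, 21.3 and 6.07 CPM and Plagl1 at 356, 186, 58.1 and 17.1 CPM, lower at each time. Ssbp2, by contrast, stood at 69.4, 25.9, 22.8 and 22 CPM and was near its day 6 level by day 2, and Chic2 did the same at 80.6, 36.1, 34.7 and 43.5 CPM.

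Between Dox day 4 and Dox day 2, 116 of the 126 genes that had risen were called higher and 0 lower, and 25 of the 49 that had fallen were called lower and 0 higher, by edgeR's quasi-likelihood test. Of all tested genes 15% were called higher and 10.2% lower in that step. Between Dox day 6 and Dox day 4, 51 of the 126 were called higher and 23 lower, and 21 of the 49 lower and 5 higher, where 23.6% of all tested genes were called higher and 22.6% lower. The Dox day 2 libraries stand in both the comparison with untreated and that of day 4 with day 2, and the Dox day 4 libraries in the 2 later comparisons, so these counts are not independent of each other.

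**Figure D5:**
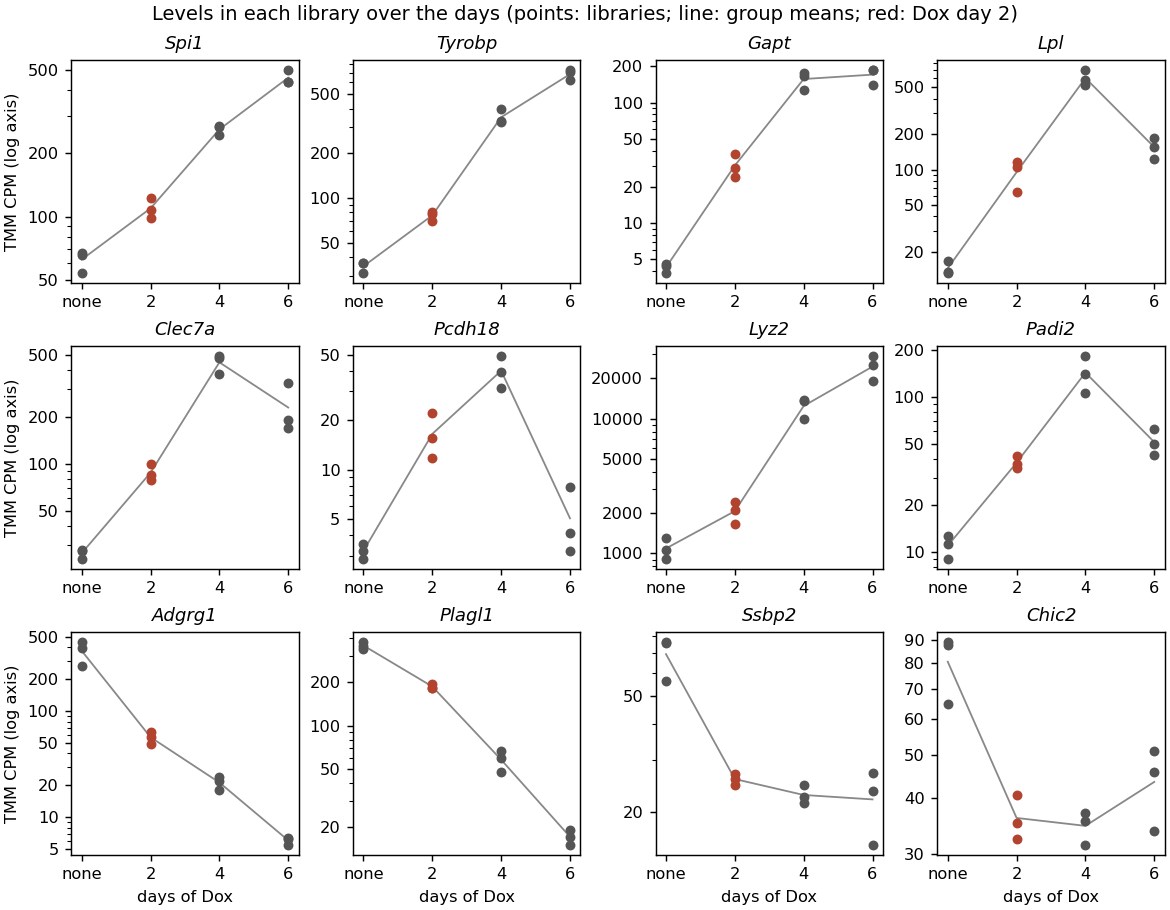
Points are the CPM of each library on a log axis for 12 genes, over untreated cells (none) and 2, 4 and 6 days of Dox, with Dox day 2 in red and a line through the group means. Spi1, Tyrobp and Lyz2 are higher at each time, Lpl, Clec7a, Pcdh18 and Padi2 are highest at day 4, Adgrg1 and Plagl1 are lower at each time, and Ssbp2 and Chic2 reach their low level by day 2.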

How the data were processed

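Bulk RNA of sorted AML246 cells was sequenced. The deposited files hold raw read counts per Entrez gene for 27179 genes, with no normalisation per the file headers, and a gene length that was not used. The submitters' processing notes list mm10, featureCounts, CASAVA 1.8.2, limma 3.22.0 and edgeR 3.8.2. The aligner, and whether counting used strand, is not given in the sources used here, so reads of overlapping or antisense genes cannot be told apart. Symbols and positions came from RefSeq for GRCm38 (25275 genes) and GENCODE (18), and 1886 genes, with 0.764% to 1.064% of the counts of the 6 libraries, stayed unnamed.

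Counts of all 12 libraries were fitted with edgeR 4.0.16 in R 4.3.3 (filterByExpr, 12057 genes; TMM factors; glmQLFit with robust dispersion and the group as the only term; 8 residual degrees of freedom; biological coefficient of variation 14.3%). The quasi-likelihood test of Dox day 2 against untreated was two-sided, with Benjamini-Hochberg adjustment over all tested genes. The SE is the fold change divided by the root of the F statistic. Alternatives used limma 3.58.1 and DESeq2 1.42.0, other scalings, filters and sets of libraries, a block for the replicate number, and omission of each library in turn. Replicates differed by 2.62 to 10.5 times the counting variance, so no library was a second copy of another. In a test on simulated data of this comparison with 11877 genes, 38% of 50 planted 1.5-fold changes, 58% of 2-fold, 96% of 4-fold and 96% of 8-fold changes were recovered, with 9 false calls. On principal components of the 6 libraries, the first held 38.3% of the variance, and its scores ran 10.34 to 27.24 at Dox day 2 and -24.58 to -13.09 in untreated cells.

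The comparison, the 41 gene lists (921 genes, 756 tested, 11 lists of cell markers) and the tests were chosen with earlier results of these data known. Some lists share genes. Genes were named by rule: Spi1 and Trp53; among called genes of at least 5 CPM in the higher group that are not predicted models, the 20 largest rises and 15 largest falls; the 10 smallest p-values in each direction; called list members; up to 2 members of lists with no call; and the 10 called genes with the highest level. Some called list members and high-level genes are left out for length, and a few genes that the lists count are not reported here. Csf1r, Csf2rb, Csf3r, Fcgr1, Trem2, Cybb, Itgam, Kit, Myb, Klf4, Irf8, Cebpe, Mpo, Nostrin, Man1c1, Stx12, P2ry1 and Relt stand outside the rule and were chosen after their values were seen.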

Additional observations from a re-analysis of the deposited data

How the results depend on the processing

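The main counts were 126 higher and 49 lower. They were 241 and 171 with the 6 compared libraries alone, 333 and 207 with 9 libraries (without Dox day 6), 281 and 143 with DESeq2, and 7 and 4 when the change had to exceed 1.5-fold (glmTreat). With 1 library left out they ranged over 27 to 378 higher and 11 to 225 lower. Other scalings, filters and limma voom stayed within 1.5 times of both counts. The Spi1 log2 fold change kept its direction in every alternative, and lost the call only against the 1.5-fold threshold (0.81, adjusted p = 0.921 by edgeR's glmTreat). The uncalled Trp53 log2 fold change of -0.02 ranged from -0.053 to 0.016 with 1 library left out, turning its sign without Dox day 2 replicate 2 (0.007) and without untreated replicate 2 (0.016). The Prg3 log2 fold change, also uncalled at 1.73, ranged from -0.059 (without Dox day 2 replicate 3) to 2.291. Replicate numbers did not pair the samples, with residual correlations of -0.004, 0.088 and -0.172 between libraries of the same number. With the replicate block the counts were 102 and 39 in 12 libraries and 157 and 97 in 6 libraries. Leaving out a library also lowers the number of samples tested. At these depths changes near 1.5-fold were mostly missed in simulated data, so a gene without a call may still have changed.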

Other observations

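Genes of the actin cytoskeleton and of G protein signalling recurred among the called genes outside the lists, and were grouped here after their values were seen, so their counts support no theme. Coro1a, an actin regulator of leukocytes, stood at a ratio of means of 2.26 with no overlap between the groups, from 9485 summed counts at Dox day 2 and 4571 in untreated cells. Hcls1, a substrate of Syk and Lyn that binds actin, averaged 118 ± 6.90 CPM at Dox day 2 and 69.5 ± 9.58 CPM in untreated cells, and the coactosin-like gene Cotl1 118 ± 14.5 and 69.2 ± 11.3 CPM. Dock8, an exchange factor of Cdc42 in leukocytes, averaged 239 ± 15.9 and 150.1 ± 31.1 CPM in the same order, and the myosin Myo1f 314 ± 31.8 and 216 ± 4.79 CPM. All 5 rose (adjusted p = 0.0101 to 0.0423 by edgeR's quasi-likelihood test) and all 5 lost the call without Dox day 2 replicate 2. Coro1a and Hcls1 lost it in no other omission. The other 3 also lost it without untreated replicates 1 or 3, Dock8 and Myo1f without Dox day 2 replicate 1, Cotl1 and Dock8 without Dox day 2 replicate 3, Myo1f without untreated replicate 2, and Dock8 without any Dox day 4 replicate or Dox day 6 replicate 3 (up to 0.180).

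Of the G protein genes, Gng2 averaged 52.4 ± 8.66 CPM at Dox day 2 and 24.6 ± 5.96 CPM in untreated cells, the receptor kinase Grk5 27.1 ± 6.33 and 12 ± 3.36 CPM, and the adenylate cyclase Adcy7 147 ± 11.3 and 82.0 ± 6.59 CPM. The regulators Rgs2 and Rgs14, which speed the shut-off of G alpha proteins, averaged 159 ± 19.4 and 53.7 ± 2.09 CPM at Dox day 2 against 109 ± 9.21 and 35.2 ± 0.762 CPM in untreated cells. Gnai3, an inhibitory G alpha subunit, fell to 253 ± 13.6 CPM at Dox day 2 against 345 ± 23.4 CPM in untreated cells. All of these were called (adjusted p = 0.017 to 0.0439 by edgeR's quasi-likelihood test), and all lost the call without Dox day 2 replicate 2 and without untreated replicate 1, among other libraries (up to 0.198 for Gnai3). Metallothionein Mt1 and the growth factor adaptor Grb10 fell, to 171 ± 21.5 and 73.9 ± 1.74 CPM at Dox day 2 against 295 ± 69.9 and 133 ± 15.6 CPM in untreated cells, and lost the call without Dox day 2 replicates 1 or 2, Mt1 also without untreated replicates 2 or 3 (up to 0.157 and 0.0727).

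Dox day 2 replicate 3 stood apart in genes of eosinophils. Epx, eosinophil peroxidase, had 11, 109 and 665 counts at Dox day 2 and 37, 143 and 133 counts in untreated cells. The variation ran across both groups, and 0 of the 9 tested eosinophil markers were called by edgeR's quasi-likelihood test, DESeq2 or limma voom, and 0 were at an unadjusted p under 0.05.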
